A study of Mus musculus with 4 samples.

Results

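The D-type cyclins Ccnd1, Ccnd2 and Ccnd3, the kinases Cdk4 and Cdk6 that they activate, and the CDK inhibitors Cdkn1a, Cdkn1b, Cdkn2c and Cdkn2d were followed in haematopoietic progenitors of the mouse foetal liver. Every probe set annotated to exactly 1 of these 9 genes was taken, which gave 25 of 45037 probe sets. Ccnd2 had 7 probe sets, Ccnd1, Ccnd3, Cdk4 and Cdk6 had 3 each, Cdkn1a and Cdkn1b had 2 each, and Cdkn2c and Cdkn2d had 1 each. The cells were sorted at E13.5 as lineage negative, cKit+ and Sca1+ (LSK cells), which include the stem cells and multipotent progenitors of the blood. The arrays were 1 labelled HES1-GFP positive and 3 labelled HES1-GFP negative. Embryos of both groups were female and of genotype Hes1 GFP/WT, with the GFP reporter at 1 allele of Hes1, which encodes a repressor of transcription induced through Notch. In the labels, only the GFP gate separates the groups. With 1 array labelled positive, its embryos or handling cannot be told apart from the gate. The number of embryos behind each array, and whether replicates came from separate litters, is not given in the sources used here, so the spread between negative arrays may be partly technical.

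D-type cyclins are made in response to growth signals and bind Cdk4 or Cdk6, and the complexes phosphorylate the retinoblastoma protein so that E2F factors can start S phase. INK4 inhibitors (Cdkn2c, also called p18, and Cdkn2d, also called p19) bind the kinases and keep the cyclin off. Cip/Kip inhibitors (Cdkn1a, also called p21, and Cdkn1b, also called p27) act mainly on cyclin and Cdk2 complexes. In adult mouse bone marrow several of these inhibitors are known to restrain the division of stem and progenitor cells, and Hes1 is known to repress Cdkn1b in other cell types.

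Promoter sequence is shown for the 3 inhibitors whose probe sets all lay above the negative arrays and for Cdk4, the member that varied least. RefSeq promoter windows on build GRCm38.p6, from 250 bases before a transcript's start to 50 after it, matched 7 of the 9 genes (all but Ccnd1 and Ccnd2) with 10 windows. The 250 bases before the start are printed, read along the gene's strand. Capitals mark matches, on either strand, to the N box (CACNAG) and the class C site (CACGCG), both bound by Hes proteins, and to the E-box CACGTG, bound by Myc.
Cdkn1b, chr6:134920151-134920400, plus strand: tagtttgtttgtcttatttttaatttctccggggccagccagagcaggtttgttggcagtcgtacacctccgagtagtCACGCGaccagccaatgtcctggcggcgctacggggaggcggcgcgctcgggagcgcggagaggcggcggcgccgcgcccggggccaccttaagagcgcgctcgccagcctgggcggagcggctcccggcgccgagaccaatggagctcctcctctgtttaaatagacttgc
Cdkn2c, chr4:109666757-109667006, minus strand: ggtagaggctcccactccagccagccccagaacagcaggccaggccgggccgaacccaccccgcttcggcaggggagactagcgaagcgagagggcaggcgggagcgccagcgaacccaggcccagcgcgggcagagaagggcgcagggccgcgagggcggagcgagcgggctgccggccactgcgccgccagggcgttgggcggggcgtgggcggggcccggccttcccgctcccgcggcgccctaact
Cdkn2d, chr9:21291210-21291459, minus strand: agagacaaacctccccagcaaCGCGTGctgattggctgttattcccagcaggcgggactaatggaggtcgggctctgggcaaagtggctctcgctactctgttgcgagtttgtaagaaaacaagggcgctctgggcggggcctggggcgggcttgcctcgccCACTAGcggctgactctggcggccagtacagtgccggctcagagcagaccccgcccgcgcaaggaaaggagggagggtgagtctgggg
Cdk4, chr10:127063285-127063534, plus strand: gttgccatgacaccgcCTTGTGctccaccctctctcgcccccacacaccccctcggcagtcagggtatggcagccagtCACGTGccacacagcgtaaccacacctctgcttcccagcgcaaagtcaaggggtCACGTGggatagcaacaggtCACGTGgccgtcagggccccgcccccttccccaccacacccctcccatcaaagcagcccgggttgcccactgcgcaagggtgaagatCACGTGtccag
No marked match overlaps another. Counting the base before the start as -1 and giving the first base of each match, Cdkn1b held a class C site at -172. Cdkn2d held a class C site at -229 on the opposite strand and an N box at -88. The Cdkn2c window shown held no match to the motifs searched, while the other Cdkn2c window, not shown, held an E-box at +35. Cdk4 held 4 E-boxes, at -172, -118, -98 and -11, and an N box at -234 on the opposite strand. Over the full windows, an N box occurred in 4 of the 10 member windows and in 42.5% of all 32851 windows. A class C site occurred in 2 member windows and in 9.27% of all windows, and the E-box in 3 member windows and in 7.15% of all. Neither of the E2F motifs searched, TTTCCCGC and TTTGGCGC, occurred in a member window, against 1.07% and 0.514% of all windows. These matches describe the letters of the windows and show no binding.

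Hes1 itself went against the labels, and the groups are therefore called by their labels. Hes1 had 6.57 on the log2 intensity scale in the array labelled positive, against 8.78, 9.07 and 6.70 in negative replicates 1, 2 and 3. Between the array labelled positive and negative replicate 3, 8.49% of probe sets were at least 1 log2 unit apart, where the other 5 pairs of arrays had 11.7% to 12.8%. Of the genes behind the sort, Kit had 10.13 in the array labelled positive, against 9.90, 9.72 and 9.68 in the negative arrays, and Ly6a, which encodes Sca1, was not analysed here. Other stem and progenitor genes lay above or inside the negative range. Cd34 was at 11.87, against 11.42, 10.80 and 11.70, and Gata2 at 10.52, against 10.21, 10.28 and 10.41. Ptprc was at 11.26, against 11.77, 11.31 and 11.06, and Procr at 9.48, against 10.06, 9.77 and 8.54, so that both lay inside the negative range. Markers of other cells were uneven among the negative arrays. The summed linear intensity of 9 macrophage genes was 3972 in the array labelled positive and 23099, 21976 and 3229 in negative replicates 1, 2 and 3, with 6 of the 9 above the median level in the array labelled positive and 9, 9 and 6 in the negative arrays. The sum of 7 B lineage genes was 3800, against 20259, 19961 and 3756, with 5 of the 7 above that level against 7, 7 and 7. The lowest deposited intensity of any probe set was 4.27, so no marker could be at 0 and these values do not show presence. The part of these cells in the results below was not tested.

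Of the 25 probe sets, 0 passed limma's test between the labelled groups at an adjusted p under 0.05, where the background over all 45037 probe sets was 0% higher and 0% lower. Within a probe set, the spread in this test comes from the 3 negative arrays. The single array labelled positive is assumed to vary like them. The eBayes step of limma then draws this spread toward a value shared by all probe sets, so that tight probe sets get a wider SE. For Cdk4 1422439 the SD of the negative arrays was 0.03 log2 units, while the SE of the difference was 0.19. That 0 passed does not show that the groups did not differ, and the confidence intervals below give the sizes left possible. Most member probe sets lay within 1 log2 unit across the 4 arrays. The gap between the highest and lowest array had a median of 0.45 log2 units over the 25 probe sets, against 0.59 over all probe sets and 0.75 over the 22518 above the median level, which include 24 of the 25. It was under 1 log2 unit in 21 of the 25, 84.0%, against 71.0% of all probe sets. The exceptions were Cdkn2c at 1.90, Ccnd3 1444323 and Cdkn2d at 1.15 each and Cdkn1a 1421679 at 1.03. The difference of the array labelled positive from the mean of the negative arrays was under 0.5 log2 units in 22 of the 25, 88.0%, against 76.9% of all. Its median was 0.05 log2 units, against 0.04 over the probe sets above the median level.

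**Figure D1:**
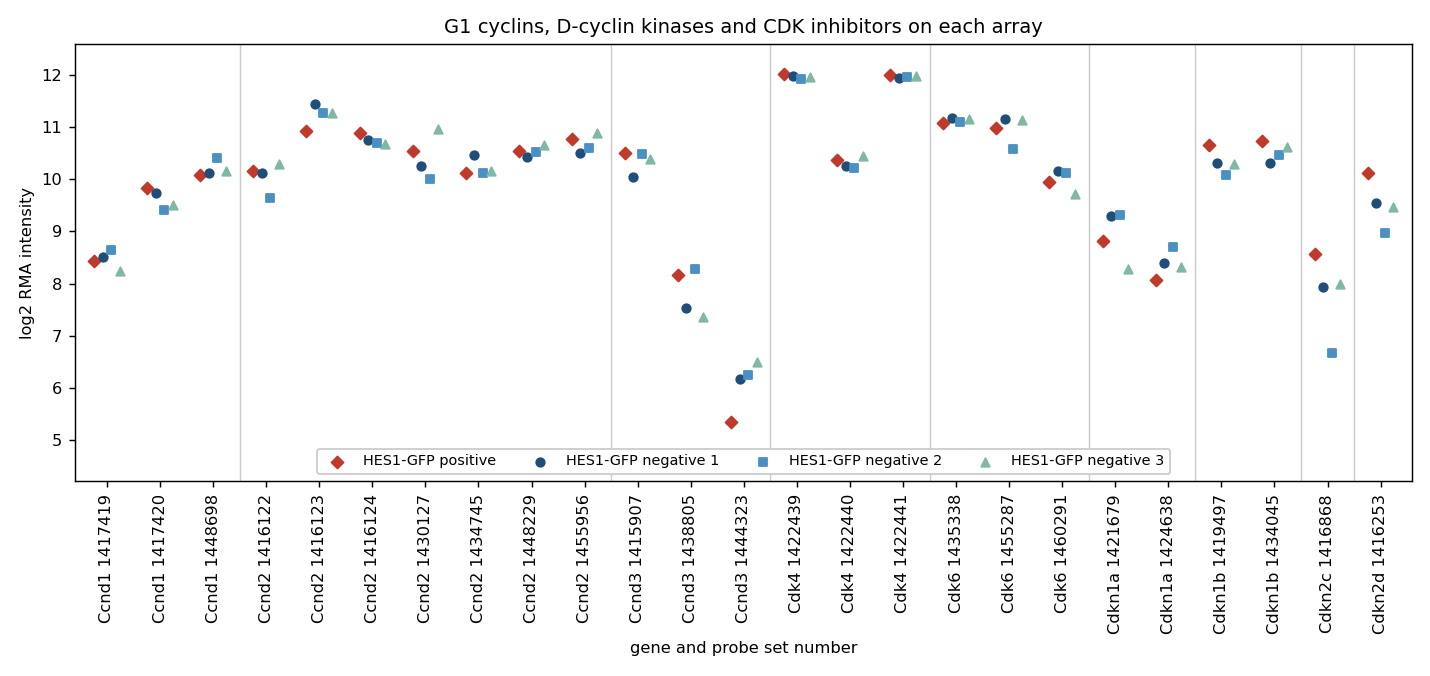
Log2 RMA intensity (vertical axis) of the 25 member probe sets (horizontal axis, by gene and probe set number) on the HES1-GFP positive array (diamonds) and the 3 HES1-GFP negative arrays (circles, squares and triangles). Values are to be compared within a probe set only; the 4 arrays nearly coincide for Cdk4, whose 1422439 probe set had 12.02 in the positive array, and lie far apart for Cdkn2c, with 8.57 in the positive array against 6.67 in negative replicate 2.

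The array labelled positive lay above all 3 negative arrays in 9 of the 25 probe sets, where 23.2% of all probe sets did, and below all 3 in 5, where 23.6% did. With the arrays rescaled by cyclic loess it lay above in 6 and below in 6, so that the counts depended on the scaling. The share over all probe sets was not computed under that scaling. Probe sets of a gene are not independent, and no excess is read from these counts. By at least 1 log2 unit the array labelled positive lay above in 0 and below in 0, against 1.35% and 0.631% of all probe sets. All 4 probe sets of Cdkn1b, Cdkn2c and Cdkn2d were among the 9, and the D-type cyclins gave 3 above, 3 below and 7 within the range. The negative array nearest to the one labelled positive was replicate 1 in 11 member probe sets, replicate 2 in 6 and replicate 3 in 8. Over all probe sets these shares were 31.1%, 29.2% and 39.7%. Set against negative replicates 1 and 2 alone, the array labelled positive lay above in 14 member probe sets and below in 8, where 34.4% and 32.5% of all probe sets did. That range is narrower by construction.

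Ccnd1, the cyclin that links many growth signals to the cell cycle, gave differences of both signs. Its probe set 1448698, the brightest, had log2 intensities of 10.09 in the array labelled positive and 10.13, 10.42 and 10.17 in negative replicates 1, 2 and 3. Probe set 1417420 had 9.83, against 9.75, 9.41 and 9.50. Probe set 1417419 had 8.43, against 8.51, 8.63 and 8.24. The array labelled positive was thus the lowest of the 4 in the first, the highest in the second and inside the negative range in the third. Averaged over the 3 probe sets, the difference was 0.04 log2 units with a limma 95% confidence interval of -0.49 to 0.56.

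Ccnd2, the D-type cyclin induced by cytokines in many blood cells, had 7 probe sets whose differences ran from -0.40 to 0.18 log2 units, 5 of them higher and 2 lower. The brightest, 1416123, had 10.93 in the array labelled positive, against 11.45, 11.27 and 11.27 in the negative arrays, and so lay 0.34 log2 units below their range. Probe set 1416124 had 10.89, against 10.75, 10.69 and 10.68. Both of these probe sets are tight among the negative arrays, yet they placed the array labelled positive on opposite sides. In probe set 1430127 the negative arrays themselves lay 0.96 log2 units apart, at 10.25, 10.00 and 10.97, with 10.54 in the array labelled positive. The average over the 7 probe sets was 10.57 in the array labelled positive and 10.56 ± 0.15 in the negative arrays (SD, n = 3). That difference, 0.01 log2 units, had a limma 95% confidence interval of -0.58 to 0.59.

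Ccnd3, the D-type cyclin needed for the expansion of early lymphoid cells in mice, had the most divided probe sets. Its brightest, 1415907, had 10.51 in the array labelled positive, against 10.04, 10.49 and 10.39. Probe set 1438805 had 8.17, against 7.53, 8.27 and 7.36, where negative replicate 2 lay highest. The dim probe set 1444323 had 5.33, against 6.17, 6.24 and 6.49. It was the 1 member probe set whose mean was under the median of all probe sets, and the file holds no detection calls. Its difference of -0.97 log2 units (SE 0.24) gave an adjusted p of 0.959 in limma, and it was the only member with an unadjusted limma p under 0.05, where 4.51% of all probe sets had one. The differences of the brighter probe sets, 0.21 and 0.45 log2 units, had the opposite sign. They were 0.07 without negative replicate 1 for 1415907 and 0.27 without negative replicate 3 for 1438805.

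Cdk4, a kinase partner of the D cyclins, was nearly level on the 4 arrays. Its probe set 1422439 had 12.02 in the array labelled positive and 11.99, 11.93 and 11.97 in negative replicates 1, 2 and 3. Probe set 1422441 had 12.01, against 11.94, 11.96 and 11.99. Their gaps between highest and lowest array, 0.08 and 0.07 log2 units, were smaller than those of all but 1.16% and 0.655% of probe sets. The third, 1422440, had 10.37, against 10.25, 10.22 and 10.45. The array labelled positive was highest in the first and second by 0.02 log2 units each and within the range in the third.

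Cdk6, the other kinase partner and the one linked to the activation of quiescent stem cells in adult mouse marrow, likewise had differences near 0. The brightest probe set, 1435338, had 11.09 in the array labelled positive, against 11.18, 11.10 and 11.16. Probe set 1455287 had 10.98, against 11.16, 10.59 and 11.14, and probe set 1460291 had 9.96, against 10.17, 10.12 and 9.72. In probe sets 1455287 and 1460291 the array labelled positive lay inside the negative range. Averaged over its probe sets, the difference was -0.03 log2 units for Cdk6 (limma 95% confidence interval -0.58 to 0.52) and 0.05 for Cdk4 (-0.44 to 0.54). These intervals leave room for differences of about 0.5 log2 units in either direction.

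**Figure D2:**
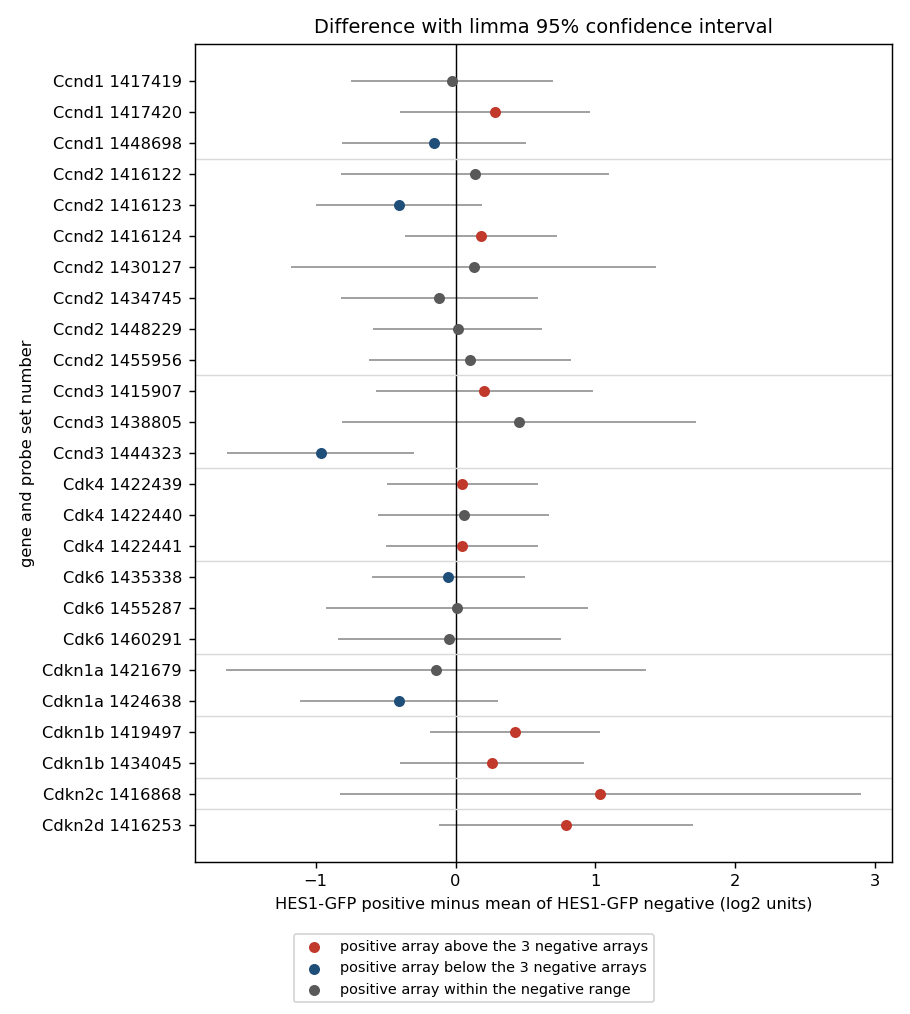
Difference in log2 intensity, HES1-GFP positive minus the mean of the 3 HES1-GFP negative arrays (horizontal axis, log2 units), for each member probe set (vertical axis); bars are limma 95% confidence intervals. The Cdk4 and Cdk6 points lie between -0.05 and 0.06, while Cdkn2c and Cdkn2d lie at 1.04 and 0.79 with intervals that include 0.

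The INK4 inhibitors had the largest positive differences among the members. On the log2 scale, Cdkn2c had 8.57 in the array labelled positive and 7.94, 6.67 and 7.99 in negative replicates 1, 2 and 3. The array labelled positive was the highest by 0.57 log2 units, while negative replicate 2 lay far below replicates 1 and 3. The difference was 1.04 log2 units (SE 0.66), a 2.05-fold higher intensity, with a limma 95% confidence interval of -0.83 to 2.90 and an adjusted p of 1.00. Without negative replicate 2 it was 0.60, so that replicate 2 alone moved it by over 1.5 times. Cdkn2d had 10.12 in the array labelled positive, against 9.54, 8.97 and 9.46. Here too the array labelled positive was highest, again by 0.57 log2 units, and negative replicate 2 lowest. The difference was 0.79 log2 units (SE 0.32), or 1.73-fold, with an interval of -0.12 to 1.70 and an adjusted p of 1.00 in limma. Leaving out negative replicates 1, 2 and 3 in turn gave 0.90, 0.61 and 0.86. Each of these genes rests on a single probe set, so that no second probe set could be set beside it.

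Cdkn1b, the Kip inhibitor that the cell removes before S phase, had its highest value in the array labelled positive in both of its probe sets. Probe set 1434045, the brighter, had 10.73 in the array labelled positive, against 10.31, 10.47 and 10.63. Probe set 1419497 had 10.66, against 10.31, 10.09 and 10.29. The gap to the nearest negative array was 0.10 log2 units in the first and 0.35 in the second. The differences were 0.26 and 0.43 log2 units (SE 0.23 and 0.21), each with an adjusted p of 1.00 in limma. Averaged over both, the array labelled positive was at 10.69 and the negative arrays at 10.35 ± 0.10 (SD, n = 3), a difference of 0.34 log2 units with a limma 95% confidence interval of -0.18 to 0.87. With probe sets averaged per gene, the array labelled positive lay above the negative range in 3 of the 9 genes (Cdkn1b, Cdkn2c and Cdkn2d) and below it in 0, where 24.0% and 23.1% of all genes did.

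Cdkn1a, the p53 target that halts the cycle after damage, had negative differences in both of its probe sets, without passing the test. Its brighter probe set, 1421679, had 8.82 in the array labelled positive, against 9.30, 9.31 and 8.28 in negative replicates 1, 2 and 3. Probe set 1424638 had 8.07, against 8.40, 8.69 and 8.33. In the first, negative replicates 1 and 2 were high and replicate 3 low, with the array labelled positive between them. In the second, the array labelled positive was lowest. The differences were -0.14 and -0.40 log2 units (SE 0.53 and 0.25), and without negative replicate 3 they were -0.48 in both. Without negative replicate 1 or 2 the first was 0.03 or 0.04. The negative arrays with the higher Cdkn1a in probe set 1421679 were those with the higher sums of macrophage and B lineage markers given above, and the part of such cells in this order was not tested. In sorted bulk RNA, fewer cells of a type and less RNA per cell cannot be told apart.

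**Figure D3:**
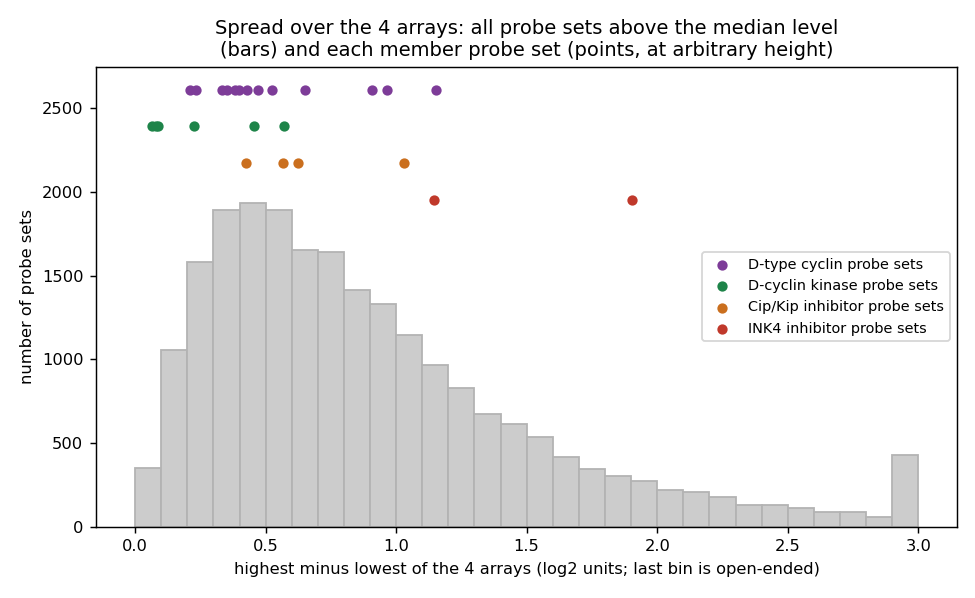
Number of probe sets (vertical axis) by the gap between the highest and lowest of the 4 arrays (horizontal axis, log2 units) for all 22518 probe sets above the median level (bars), with each member probe set as a point coloured by role and placed at an arbitrary height. The D-cyclin kinases lie at 0.07 to 0.57 and the INK4 inhibitors at 1.15 and 1.90.

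Among the member probe sets, roles differed in how far the arrays lay apart, given as a description. The gap between highest and lowest array had a median of 0.16 log2 units over the 6 probe sets of the kinases and 0.43 over the 13 of the D-type cyclins. It was 0.59 over the 4 of the Cip/Kip inhibitors, and 1.15 and 1.90 for the 2 INK4 probe sets. Probe sets of a gene share their target and are not independent. Outside the members, Cdkn1c, which is not an INK4 gene, did not keep this order and ran from 7.26 to 9.19 over the 4 arrays. The INK4 genes Cdkn2a and Cdkn2b ran from 5.38 to 5.81 and from 3.88 to 4.01. Both were dim, with means under the median of all probe sets, so their narrow gaps cannot speak to this order.

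Other genes of the G1 to S transition were counted in 6 lists, and 55 of the 57 genes were measured, each by the brightest of its own probe sets. In limma 0 of the 55 passed. The array labelled positive lay above the negative range in 19, below it in 5 and within it in 31, where 23.6% of all genes lay above and 23.0% below. Of the 55, 0 lay at least 1 log2 unit above the range and 0 as far below it, against 0.841% and 0.566% of all genes. The median difference over all 18193 genes was -0.001 log2 units. Most of the 55 lay above the median level, and over the probe sets above that level the median difference was 0.04.

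Among 7 genes of E-type cyclins, Cdk2 and its activation, 3 lay above the range and 0 below, with a median difference of 0.21 log2 units. Ccne1, which drives Cdk2 at the start of S phase, had 9.71 in the array labelled positive, against 8.76, 9.41 and 9.84 in negative replicates 1, 2 and 3. Ccne2, its paralogue, was at 7.71, against 7.46, 7.23 and 7.52. Cdk2 was at 9.13, against 8.75, 8.95 and 9.04. Ccnh, the cyclin of the CDK-activating kinase, was at 11.51, against 11.19, 10.89 and 11.13. Ccne1 thus overlapped the negative arrays, and the other 3 did not in their brightest probe set. These genes were named for the largest absolute moderated t, which favours such gaps. Averaged over its 2 probe sets, the difference of Cdk2 was 0.05 log2 units, against 0.21 in the brightest. For Ccnh it was 0.36 over 3 probe sets, against 0.44, and Ccne2 had 1 probe set. The list's median was 0.09 without negative replicate 1.

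The other CDK inhibitors, with 3 genes, had a median difference of -0.06 and 1 gene below the range. The median was -0.16, -0.03 and -0.10 without negative replicates 1, 2 and 3 in turn, -0.03 with cyclic loess, and -0.91 with a filter at the median level, which leaves Cdkn1c alone. Cdkn1c, also called p57 and known as an inhibitor of stem cell division in adult mouse marrow, had 7.26 in the array labelled positive, against 9.19, 7.87 and 7.44. Negative replicate 1 stood far above the other arrays, and without it the difference of -0.91 log2 units became -0.40. Cdkn2a was at 5.64, against 5.38, 5.81 and 5.78, and Cdkn2b at 3.90, against 3.98, 4.01 and 3.88. These INK4 genes were dim, with means under the median of all probe sets, and lay inside the negative range.

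Of 13 genes of the Rb and E2F families, 5 lay above the range and 1 below, with a median of 0.26 log2 units that was 0.13 without negative replicate 2, 0.16 without negative replicate 1 and 0.15 with averaged probe sets. E2f5, a repressing E2F, had 7.08 in the array labelled positive, against 6.20, 5.75 and 6.60. E2f2, an activating E2F, was at 11.27, against 10.67, 10.73 and 10.94, and E2f1 at 10.09, against 9.48, 9.72 and 9.91. E2f7, which represses E2F targets late in the cycle, was at 7.26, against 7.58, 7.72 and 7.66. E2f1 and E2f2 lay above all negative arrays and E2f7 below them, with adjusted p of 1.00 in limma for each. The repressing E2f5 lay above them too, so the sides did not go by activating or repressing role. E2f6 also lay above, with a difference of 0.34 log2 units. E2f3 and E2f8 lay inside the negative range, with differences of 0.02 and 0.26.

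Among 8 genes that control the turnover of D cyclins and Cdkn1b, 3 lay above and 1 below, with a median of 0.20. Cks1b, the cofactor of the ligase that removes Cdkn1b, was at 12.85, against 12.64, 12.66 and 12.74. Fbxo4 was at 7.41, against 6.76, 7.29 and 6.29, and Fbxo31, an F-box protein that targets Ccnd1, at 9.04, against 9.03, 8.68 and 8.13. Gsk3b, the kinase that marks D cyclins for degradation, was at 11.05, against 11.25, 11.30 and 11.11. When its 6 probe sets were averaged, the difference of Gsk3b turned from -0.17 to 0.07 log2 units. Averaged over 2 probe sets each, that of Fbxo4 went from 0.63 to 0.31, that of Fbxo31 from 0.43 to 0.18 and that of Cks1b from 0.17 to 0.16.

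Of 8 upstream regulators, 5 lay above the range and 0 below, with a median of 0.35 log2 units, which was -0.03 when the probe sets of each gene were averaged. Gfi1, a repressor that restrains stem cell division in adult mice, had 10.73 in the array labelled positive and 10.30, 10.28 and 10.29 in the negative arrays. Zbtb17, the Myc partner that activates CDK inhibitor genes, was at 8.89, against 8.45, 8.48 and 8.52. For both, the negative arrays lay close together and the array labelled positive above them, by differences of 0.44 and 0.41 log2 units (SE 0.19 each, adjusted p of 1.00 in limma). Averaged over its 2 probe sets, the difference of Zbtb17 was 0.24, and Gfi1 had 1 probe set. Foxo3, which activates Cdkn1b, was at 12.33, against 11.97, 11.98 and 12.17. The other FOXO genes of the list had negative differences and lay inside the range. Foxo1 was at 9.57, against 10.85, 11.09 and 9.37, and Foxo4 at 9.99, against 9.80, 10.36 and 10.14. Mycn was at 11.53, against 11.01, 10.66 and 11.46, with a difference of 0.48 log2 units that was 0.29 without negative replicate 2 and -0.13 over its averaged probe sets.

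Genes of S phase and mitosis did not follow either side, with 3 of 16 above the range, 2 below and a median of 0.11 log2 units. Bub1, a spindle checkpoint kinase, was at 9.57, against 8.75, 8.33 and 9.46. Ccna2, the S phase cyclin, was at 11.63, against 11.32, 11.12 and 11.40, and Cdk1, the mitotic kinase, at 11.13, against 10.77, 10.77 and 11.01. Ccnb2, a mitotic cyclin, was at 10.90, against 10.91, 11.18 and 11.36. Averaged over 2 probe sets each, the difference of Bub1 went from 0.73 to 0.22 log2 units and that of Ccna2 from 0.35 to 0.32. Cdk1 and Ccnb2 had 1 probe set each. The list's median was 0.02 without negative replicate 2, 0.07 without negative replicate 3, 0.06 with cyclic loess and 0.05 with averaged probe sets.

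**Figure D4:**
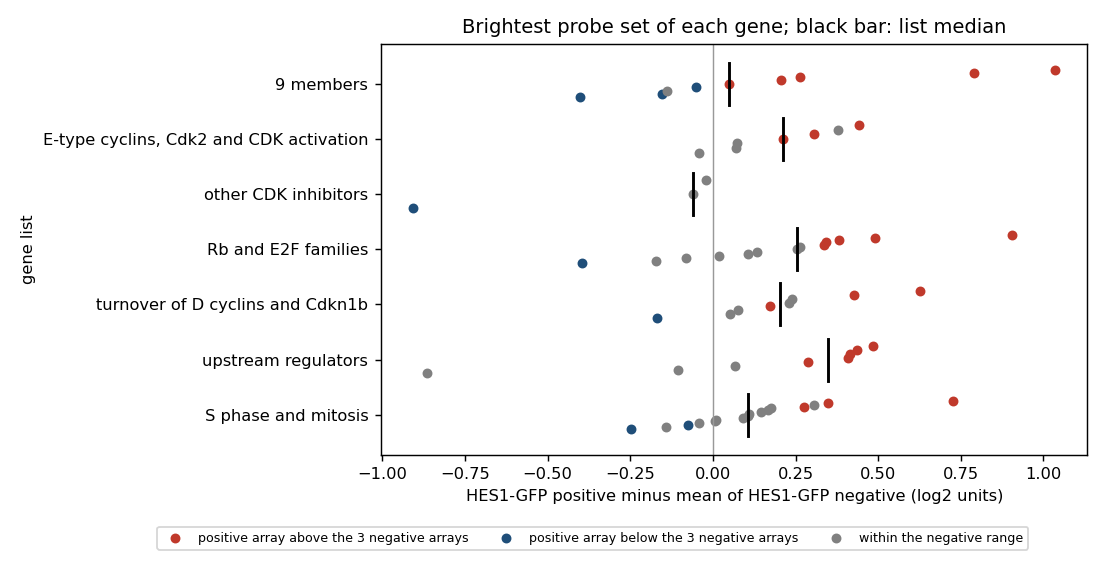
Difference in log2 intensity, HES1-GFP positive minus the mean of the 3 HES1-GFP negative arrays (horizontal axis, log2 units), for the brightest probe set of each gene in the 9 members and 6 pathway lists (vertical axis). Points are coloured by whether the positive array lay above, below or within the negative range and black bars are list medians, which run from -0.06 for the other CDK inhibitors to 0.35 for the upstream regulators.

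The genes most like the members of widest range were found by the root mean square distance between centred log2 values over the 4 arrays, among genes above the median level with at least 0.5 times the member's range. For Cdkn2c these were Pik3r2, Ythdc2 and Cep70, at distances of 0.04 to 0.06 log2 units. For Cdkn2d they were Rgl2, Fam91a1 and Mutyh, at 0.04 each, and for Cdkn1a Crebrf, Nbeal1 and Agfg2, at 0.03 to 0.04. Over 4 arrays many genes come this close. Of 3462 candidates, 69 lay within 0.25 log2 units of Cdkn2c, as did 555 of 6318 for Cdkn2d and 441 of 6878 for Cdkn1a.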

How the data were processed

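Total RNA of sorted LSK cells was taken with a column kit and 5 ng was amplified and labelled as biotin cDNA, per the labels' protocols. Noise added by amplifying so small an input was not measured. The authors made the values with RMA, per the submitters' processing notes, by software not given in the sources used here. As deposited, each probe set has an intensity on the linear scale (4.27 to 27451.5, column medians 74.8 to 76.1), and log2 of the deposited values was taken here with no pseudocount, as the design had foreseen for linear values. RMA equalizes the arrays, so total RNA per cell cannot be seen. The number of arrays limits the precision. Probe sets were named from the platform annotation, updated by gene ID to GRCm38.p6 symbols. Of 45037 non-control probe sets, 34945 carried 1 symbol, 932 several and 9160 none, and 34741 of the first matched by gene ID. Arrays were compared by limma 3.58.1 (R 4.3.3) on all 45037 probe sets with lmFit and eBayes, two-sided, with Benjamini-Hochberg adjustment over all of them and a threshold of 0.05, on 2 residual and 1.8 prior degrees of freedom. The fit was tested on simulated data. The named genes were all member probe sets, Hes1, up to 4 genes per pathway list with the largest absolute moderated t, and 3 genes most like each of the 3 members of widest range, by brightest probe set. Marker genes and some other genes of the lists are given beside them. The members and lists were chosen with earlier results of these data known. The alternatives were cyclic loess, eBayes with trend and robust settings, a filter at the median level, averaged or brightest probe sets per gene, and leaving out each negative array.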

Additional observations from a re-analysis of the deposited data

How the results depend on the processing

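In limma 0 member probe sets passed under the 8 alternatives, and 0 of all probe sets or genes, with unadjusted p under 0.05 in 724 to 3275 of them. The count of member probe sets above the negative range was 6 with cyclic loess, 9 to 14 when a negative replicate was left out, and 3 of 9 genes with averaged probe sets. The count below was 6 with cyclic loess, 5 to 8 when a negative replicate was left out, and 0 with averaged probe sets. Of the pathway genes, 23 to 31 lay above and 6 to 11 below without a negative replicate, and 9 below with averaged probe sets. With cyclic loess 16 lay above and 7 below. Fewer arrays give a narrower range by construction. Without negative replicate 3, 34.4% of all probe sets lay above and 32.5% below. With averaged probe sets, 24.0% and 23.1% of all genes did. The share over all probe sets or genes was not computed with cyclic loess or without negative replicate 1 or 2. Those counts are thus not read as results about the members or lists. All 4 probe sets of Cdkn1b, Cdkn2c and Cdkn2d kept a positive difference with cyclic loess, of 0.21 to 1.00 log2 units. The other alternatives could not change its sign, because the array labelled positive lay above every negative array in each of the 4.

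Some differences, in log2 units, changed sign, and the cause was not tested. With cyclic loess they were -0.038 for Ccnd2 1448229, -4.9e-05 for Cdk4 1422441 and -0.042 for Cdk6 1455287. Leaving out each negative replicate in turn gave -0.14 to 0.064 for Ccnd1 1417419, -0.049 to 0.28 for Ccnd2 1416122, -0.073 to 0.41 for Ccnd2 1430127 and -0.040 to 0.076 for Ccnd2 1448229. It gave -0.18 to 0.11 for Cdk6 1455287, -0.19 to 0.040 for Cdk6 1460291 and -0.48 to 0.037 for Cdkn1a 1421679. Averaged over each gene's probe sets, the difference was 0.035 for Ccnd1, 0.0073 for Ccnd2 and -0.10 for Ccnd3, where the brightest probe set alone had -0.15, -0.40 and 0.21. No paired analysis was possible. The groups share only replicate number 1, and the labels do not state that equal numbers mark a pair. With 1 array labelled positive, its own spread is unknown, and the file holds no detection calls to set signal over background.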

Other observations

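Summed linear intensities of the other marker lists, each over its measured genes, also differed among the negative arrays. Granulocyte and monocyte genes (5, Elane and Mpo among them) summed to 23609 in the array labelled positive, against 7182, 7385 and 23253 in negative replicates 1, 2 and 3. Endothelial genes (5) summed to 754, against 2650, 2081 and 1259, and T lineage genes (4) to 191, against 959, 1397 and 251. Erythroid genes (5) summed to 20751, against 16240, 16429 and 21090, and megakaryocyte genes (5) to 1982, against 2081, 2322 and 1388. Hepatoblast genes (5) summed to 1136, against 1720, 1297 and 901, and stem and progenitor genes (5, Kit among them) to 9497, against 9454, 7279 and 8020. The array labelled positive and negative replicate 3 had like sums of granulocyte and monocyte genes, and both were above the other negative arrays.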
